A study of Rattus norvegicus with 32 samples.

Results

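Lungs of rats taken 6 h after hemorrhage were set against lungs of sham rats. The 6 h group comprised the 5 samples that the titles number 1 to 5. The sham group comprised the samples numbered 1, 3, 4, 5 and 6, so that 10 of the 32 lungs of the series entered the comparison. Sham replicate 2 was left out for its liver signal and is given as a check. Both groups were male Sprague-Dawley rats of 280 to 300 g. Each had received 2 arterial catheters and a telemetry device under isofluorane, followed by 7 to 10 days of recovery. The 6 h rats then had 40% of their estimated blood volume withdrawn, and the sham rats were not bled. All were killed under Nembutal by exsanguination, so terminal blood loss was common to both groups. The protocol does not state clearly when the sham lungs were taken, and a difference in time of day between the groups cannot be told apart from hemorrhage. Control rats, 3 in number, carried no instruments and were not bled. The labels do not number the animals, so every p-value rests on the spread among these lungs, part of which may be technical.

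The question was which transcripts of the lung differ from sham at this time. Blood loss lowers the delivery of oxygen and sets off release of catecholamines, vasopressin, angiotensin and glucocorticoid. The lung receives the whole cardiac output. It is known to hold neutrophils after shock, and its function depends on surfactant from type II pneumocytes, on fluid removal by epithelial sodium transport and on an intact capillary endothelium.

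Lung RNA was hybridised with a pool of RNA from several rat organs on 2-colour spotted arrays, and each value below is a log2 ratio of lung over pool, relative to the median of its array. A difference of 1 on this scale is a 2-fold difference in that ratio. Of 13056 spots, 12696 to 12812 had a value on the 6 h arrays and 12537 to 12764 on the sham arrays used. Spots of the same sequence correlated at 0.799 to 0.875 on 6 h arrays and at 0.747 to 0.864 on sham arrays, against 0.64 on sham replicate 2. The labelled tissue was checked on lung genes, whose median log2 ratio was 0.75 to 1.99 on the 10 arrays, against -0.71 to 0.17 for genes of other organs. On sham replicate 2 the median over 32 liver genes was 2.61. The liver median was -0.54, -0.66, -0.70, 0.37 and -0.27 on 6 h arrays 1 to 5, and -0.77 to -0.32 on the sham arrays used. Precision is limited by how few arrays there were, and in whole lung fewer cells of a type and less RNA per cell cannot be told apart.

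No gene was called different at 6 h. Of 6199 genes and unnamed spot pairs tested with limma, 0% were called higher or lower at an adjusted p under 0.05 (0 in each direction), the smallest adjusted p being 0.0857. At an unadjusted p under 0.05 stood 697 higher (11.2%) and 682 lower (11%). This range of p held 1379 features, while the equally wide range above 0.95 held 167. At an adjusted p under 0.10 stood 94 higher (1.52%) and 69 lower (1.11%). The last 2 counts, 163 together, came to 74 with no centring, to 0 with the replicate number as a block and to 0 with sham replicate 2 added. They came to 0 when 6 h replicate 2, 3 or 4 or sham replicate 5 was left out, to 3, 7, 20 and 61 without 6 h replicate 5 and sham replicates 1, 3 and 6, and to 418 without 6 h replicate 1. By order alone, all 5 6 h arrays lay above all 5 sham arrays for 188 of 6100 features (3.08%) and below them for 180 (2.95%). With no centring of the arrays these counts were 137 and 210, and without 6 h replicate 1 they were 376 and 332. They were 292 and 281 without sham replicate 4 and 296 and 251 without sham replicate 6. Fewer arrays make order without overlap easier to reach. On simulated data for this comparison over 6199 genes, 47% of differences of 1 log2 unit and 92% of 2 units were recovered. The simulation changed 100 genes by each size, with noise drawn independently for each gene. These shares depend on those settings and need not hold for the real arrays. Differences on the real arrays were mostly smaller, with a median size of 0.33, and 298 of 6199 reached 1 log2 unit.

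Array pairs within the 6 h group correlated at 0.643 to 0.835 (median 0.751), pairs within the sham group at 0.629 to 0.753 (median 0.664) and pairs across the groups at 0.412 to 0.738 (median 0.625), so the 3 ranges overlapped. The first principal component, with 29.7% of the variance over 5858 genes, put the 6 h arrays at -1.6, -11.7, -16.6, -35.9 and -19.7, against 36.3, 11.5, 21.4, 11.2 and 5.2 for the sham arrays. The groups did not overlap on it, and 6 h replicate 1 was the 6 h array nearest to sham. The liver median was highest on 6 h replicate 4, the array farthest from sham, and the part of liver signal in this axis was not tested.

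**Figure D1:**
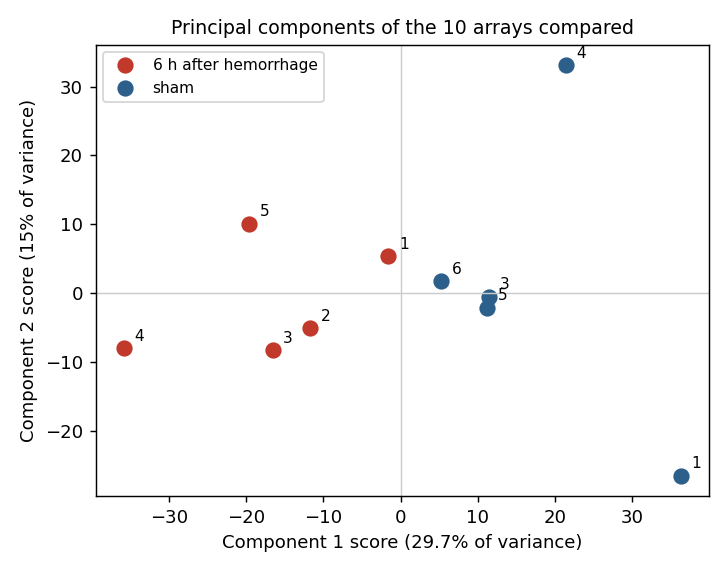
Scores of the 10 arrays on the first 2 principal components (unitless, with the share of variance on each axis), numbered by replicate. The 6 h arrays (red) lie between -35.9 and -1.6 on component 1, and the sham arrays (blue) between 5.2 and 36.3.

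Among named genes that stood higher, the smallest p was that of Rbbp9, a serine hydrolase that binds the retinoblastoma protein. It stood at -0.59, -0.44, -1.10, -0.38 and -1.15 in the 6 h lungs, against -2.34, -2.09, -3.05, -2.56 and -1.88 in the sham lungs. Every 6 h value was above every sham value, and the difference was 1.65 ± 0.25 (SE; limma adjusted p = 0.0857). Smad4, the common partner of the SMADs that carry TGF-beta and BMP signals into the nucleus, stood at 0.87, 0.94, 1.11, 0.77 and 0.47 in the 6 h lungs, against -0.17, -0.21, -0.52, -0.33 and -0.02 in the sham lungs. The sham values were all below 0 and the 6 h values all above it, a difference of 1.08 ± 0.17. Acvr1, a type I receptor of the BMP family, differed by 0.99 ± 0.19, again without overlap. Gper1, a G protein-coupled receptor that responds to estrogen, stood at 1.03, 1.30, 1.60, 1.52 and 1.11 in the 6 h lungs, against 0.27, 0.14, 0.61, 0.46 and 0.38 in the sham lungs. Its lowest 6 h value was 1.03 and its highest sham value 0.61, and the difference was 0.94 ± 0.17.

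F2 (prothrombin), made mainly in the liver, stood at -0.37, -0.59, -0.83, -0.70 and -0.90 in the 6 h lungs, against -1.38, -1.76, -1.78, -1.65 and -1.51 in the sham lungs, a difference of 0.94 ± 0.16. Leaving out 6 h replicate 4, the array with the highest liver median, gave 0.94. Whether liver RNA has a part in the difference of F2 was not tested. Alb (albumin) was at -3.75, -4.82, -3.31, 0.01 and -2.28 in the 6 h lungs, against -3.78, -4.0, -2.78, -4.48 and -3.02 in the sham lungs, and Hp (haptoglobin) was at -1.15, -0.96, -0.89, 0.99 and -0.37 in the 6 h lungs, against -0.78, -0.91, -0.46, -0.65 and -1.14 in the sham lungs. On 6 h replicate 4 both were higher than on any other of the 10 arrays. Their differences were 0.78 ± 0.74 and 0.31 ± 0.36, each with an unadjusted limma p above 0.05. Without that array the difference was 1.56 for Rbbp9, 0.97 for Pdk1, -1.39 for Slc34a2, -1.10 for Scgb1a1 and 1.05 for Gucy1b1.

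Ccni, an atypical cyclin, had a large but uneven difference. It stood at 0.16, 0.63, 0.66, 0.73 and 0.71 in the 6 h lungs, against -3.26, -0.78, -1.05, -3.29 and -1.62 in the sham lungs, and the lower sham values included a spot near the lowest ratio the file holds, where a log2 value is coarse. Its difference was 2.58 ± 0.48. Chmp2b, a subunit of the ESCRT-III membrane-scission complex, differed by 2.31 ± 0.46, also with a sham spot near the lowest ratio, and its groups overlapped through 6 h replicate 1, at -0.36, and sham replicate 1, at -0.28. Chek1, the checkpoint kinase of the DNA damage response, stood at -0.19, -0.42, -0.44, -0.23 and -1.05 in the 6 h lungs, against -2.30, -1.76, -1.31, -1.79 and -1.39 in the sham lungs, a difference of 1.25 ± 0.23 without overlap. The other genes among the 12 with the smallest p were Pitx1 (a homeobox factor), Rasgrf2 (an exchange factor for Ras and Rac), Cntn4 (a neural adhesion protein) and Chrna1 (a subunit of the muscle nicotinic receptor). Their differences were 1.09, 0.99, 1.05 and 0.92, each without overlap and each with an adjusted p of 0.0857.

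**Figure D2:**
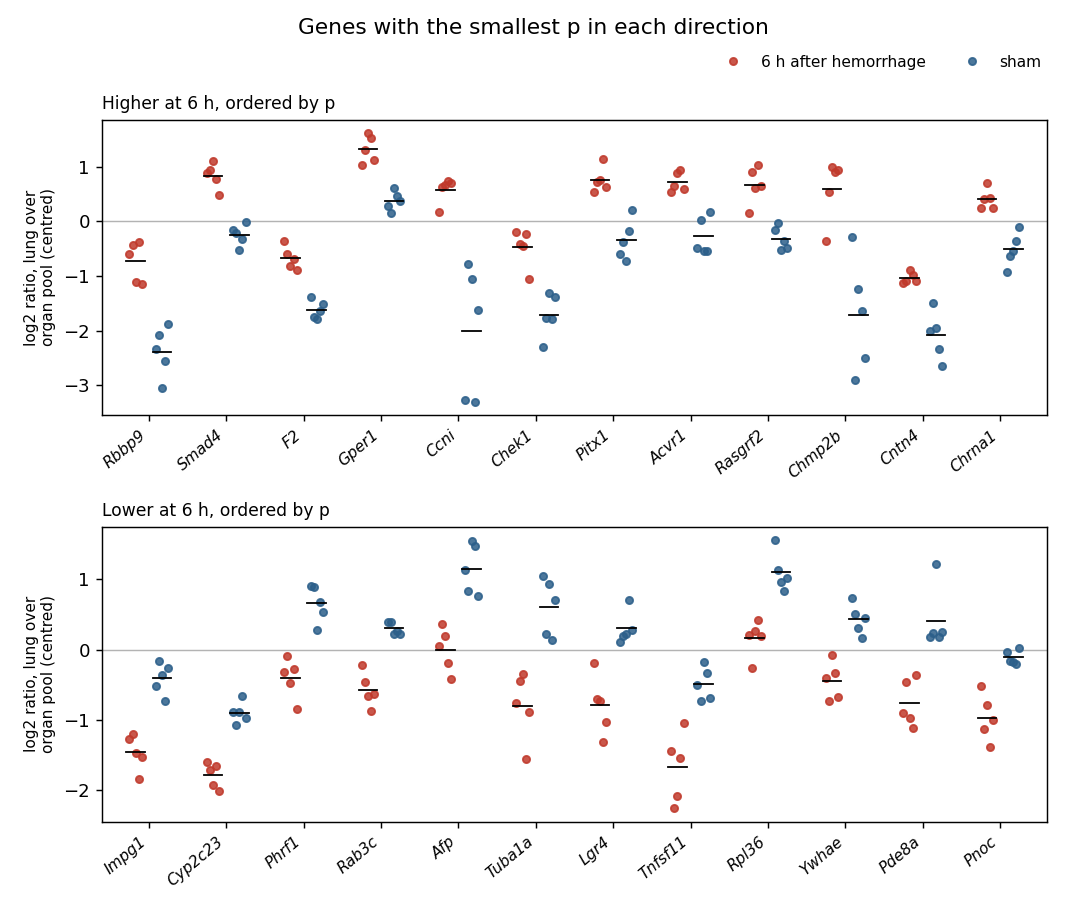
Centred log2 ratio of lung over organ pool on each array for the 12 genes with the smallest p in each direction, with 6 h lungs (red) left of sham lungs (blue) and bars for group means. The groups do not overlap for 23 of the 24 genes, the exception being Chmp2b, and the adjusted p was 0.0857 to 0.0872.

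In the downward direction the smallest p belonged to Impg1, a proteoglycan known from the matrix around photoreceptors. It stood at -1.26, -1.21, -1.48, -1.84 and -1.53 in the 6 h lungs, against -0.52, -0.15, -0.37, -0.73 and -0.26 in the sham lungs, a difference of -1.06 ± 0.18 (adjusted p = 0.0857). Tnfsf11 (RANKL), the ligand that drives osteoclast formation and is also made by activated T cells, stood at -1.45, -2.26, -2.09, -1.54 and -1.04 in the 6 h lungs, against -0.51, -0.73, -0.18, -0.33 and -0.68 in the sham lungs. All 6 h values were at -1.04 or lower and all sham values at -0.73 or higher, a difference of -1.19 ± 0.24. Lgr4, a receptor for R-spondins that strengthens Wnt signalling, stood at -0.19, -0.70, -0.73, -1.31 and -1.03 in the 6 h lungs, against 0.12, 0.19, 0.22, 0.70 and 0.28 in the sham lungs, a difference of -1.09 ± 0.22. Pde8a, a phosphodiesterase specific for cAMP, stood at -0.90, -0.46, -0.97, -1.11 and -0.37 in the 6 h lungs, against 0.18, 0.24, 1.22, 0.19 and 0.25 in the sham lungs. The groups did not overlap and differed by -1.18 ± 0.24, although sham replicate 4, at 1.22, stood apart from the other sham values.

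Tuba1a, an alpha-tubulin, stood at -0.75, -0.45, -0.35, -1.56 and -0.89 in the 6 h lungs, against 1.05, 0.23, 0.94, 0.14 and 0.71 in the sham lungs, a difference of -1.41 ± 0.27. Its spots can also bind transcripts of other, nearly identical tubulins. Rab3c, a small GTPase of secretory vesicles, differed by -0.87, and Ywhae, a 14-3-3 adaptor, by -0.88. Cd81, a tetraspanin of the cell surface chosen for mention after its value was seen, had a difference of -1.16 ± 0.25. Phrf1, a PHD and RING finger protein, differed by -1.06, Rpl36, a ribosomal protein, by -0.94 and Pnoc, the precursor of nociceptin, by -0.85. Afp (alpha-fetoprotein) was at 0.05, 0.37, 0.20, -0.19 and -0.41 in the 6 h lungs, against 1.13, 0.83, 1.54, 1.47 and 0.76 in the sham lungs, and Cyp2c23, an arachidonic acid epoxygenase known from rat kidney and liver, was at -1.59, -1.71, -1.92, -1.66 and -2.02 in the 6 h lungs, against -0.89, -1.07, -0.89, -0.67 and -0.97 in the sham lungs. Their differences were -1.15 and -0.88. Cyp2c23 stood at 2.08 on sham replicate 2.

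Genes of the alveolar epithelium stood mostly lower at 6 h. Of 9 measured type II pneumocyte markers, 8 had a negative difference, 4 of them at an unadjusted p under 0.05, and the median was -0.62 against 0.02 over all features tested. At that p 11% of all features were lower, and 0 of the 9 were called. Slc34a2, the sodium phosphate cotransporter of type II cells, stood at 0.02, 0.29, -0.69, -1.30 and -0.86 in the 6 h lungs, against 2.25, 0.16, 1.34, 1.12 and 0.52 in the sham lungs. The difference was -1.59 ± 0.41 (adjusted p = 0.0958), and the groups overlapped through 6 h replicate 2 and sham replicate 3. Sftpb (surfactant protein B, which spreads surfactant lipid at the air surface) stood at 2.15, 2.39, 2.31, 1.71 and 2.50 in the 6 h lungs, against 3.89, 2.95, 2.99, 2.50 and 3.03 in the sham lungs. The highest 6 h value lay just below the lowest sham value, and the difference was -0.86 ± 0.25. Lyz2 (lysozyme, also a macrophage gene) and Muc1, a membrane mucin, differed by -0.91 and -0.69. Sftpc, the other hydrophobic surfactant protein, stood at 1.85, 1.85, 3.29, 2.60 and 3.60 in the 6 h lungs, against 3.26, 3.24, 4.48, 2.22 and 3.08 in the sham lungs, and the 95% interval of its difference was -1.59 to 0.36. It therefore includes both no difference and one as large as that of Sftpb.

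Among 6 type I pneumocyte markers, which mark the flat cells of gas exchange, Aqp5, a water channel, and Akap5, an anchor of protein kinase A, had an unadjusted p under 0.05. They differed by -0.77 ± 0.31 and -0.44 ± 0.18, both lower at 6 h. Ager, the receptor RAGE of type I cells, differed by -0.31 with an interval of -0.87 to 0.25. Where 11% of all features were lower and 11.2% higher at that p, 3 of 10 club and ciliated cell markers were lower and 1 higher. The median of their differences was -0.16, while their median level per array was 0.90 ± 0.32 in 6 h lungs and 0.84 ± 0.12 in sham lungs (SD, n = 5 each; exact permutation p = 0.786), so the 2 summaries differ in sign. Scgb1a1, the main secretory protein of club cells, stood at 2.23, 2.12, 2.29, 1.95 and 2.47 in the 6 h lungs, against 3.77, 3.43, 3.96, 2.52 and 3.19 in the sham lungs. All 6 h values were at 2.47 or lower and all sham values at 2.52 or higher, a difference of -1.16 ± 0.26 (adjusted p = 0.0878). Aldh1a1, a retinaldehyde dehydrogenase of airway cells, stood at 0.75, 0.49, 0.39, -0.10 and 0.56 in the 6 h lungs, against 1.99, 0.88, 1.43, 0.89 and 0.87 in the sham lungs, a difference of -0.80 ± 0.26 without overlap. Tekt1, a protein of ciliary microtubules, went the other way with 0.70 ± 0.25.

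The alveolar lists were also summed up as the median of the markers on each array. The type II median was 1.11 ± 0.48 in 6 h lungs and 1.45 ± 0.57 in sham lungs (SD, n = 5 each; exact permutation p = 0.302, adjusted over 13 marker lists 0.739). The type I median was 1.59 ± 0.13 in 6 h lungs and 1.84 ± 0.44 in sham lungs (exact permutation, adjusted p = 0.739). With 5 arrays against 5, the smallest p that this test allows is 0.00794. Without sham replicate 1 the difference was -0.147 for type II, against -0.347 with it, and -0.11 for type I, against -0.247. Without 6 h replicate 5 the type II difference was -0.555, and without sham replicate 5 the type I difference was -0.394. Adding sham replicate 2, on which Sftpb stood at -2.38, turned the difference of Sftpb to 0.05, of Akap5 to 0.13 and of Lyz2 to 0.21.

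Fluid and ion transport, by which the alveolus is kept dry, was represented by 37 genes, 4 higher and 6 lower at an unadjusted p under 0.05, against 11.2% and 11% of all features. Nedd4, a ubiquitin ligase that acts on membrane proteins including the epithelial sodium channel, stood at -0.72, -0.93, -1.39, -1.56 and -1.25 in the 6 h lungs, against -0.20, -0.63, -0.25, 0.29 and -0.24 in the sham lungs. The groups did not overlap, and the difference was -0.96 ± 0.22. Scnn1b, the beta subunit of that channel, stood at 0.51, 0.82, 0.92, 1.13 and 1.0 in the 6 h lungs, against 0.53, 0.16, 0.24, 0.23 and 0.10 in the sham lungs. Its difference was 0.62 ± 0.17, with 6 h replicate 1 just under sham replicate 1. Cldn3, a tight junction protein, differed by -0.63 ± 0.15 without overlap. The beta subunits of the sodium pump differed in sign. Atp1b1 stood at -0.15, -0.22, -1.57, -0.73 and -0.07 in the 6 h lungs, against -0.02, 0.61, 1.40, 0.12 and 0.09 in the sham lungs, and Atp1b3 had a difference of 0.69 ± 0.22 in the other direction. Atp1b1 lay below sham on every array, with -0.99 ± 0.35.

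**Figure D3:**
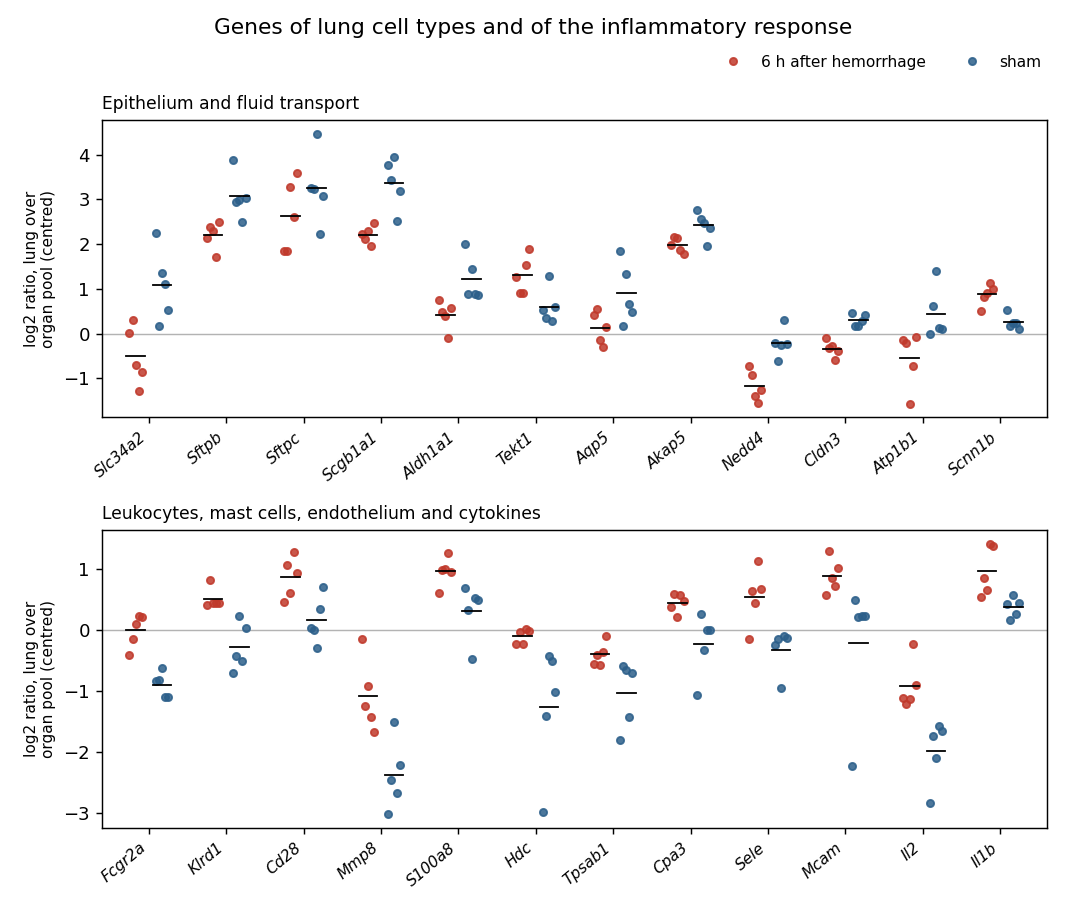
Centred log2 ratio on each array for genes of the epithelium and fluid transport (upper panel) and of leukocytes, mast cells, endothelium and cytokines (lower panel), 6 h lungs (red) left of sham lungs (blue), bars at group means. Scgb1a1, Sftpb, Nedd4 and Cldn3 lie lower and Fcgr2a, Klrd1, Hdc and Il2 higher at 6 h without overlap.

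Leukocyte genes stood on both sides of sham. Of 9 neutrophil markers 2 were higher and 2 lower at an unadjusted p under 0.05, where 11.2% and 11% of all features were. Mmp8, neutrophil collagenase, stood at -0.16, -1.26, -0.92, -1.43 and -1.68 in the 6 h lungs, against -3.02, -2.47, -1.51, -2.68 and -2.21 in the sham lungs, a difference of 1.29 ± 0.33 (adjusted p = 0.0958) with overlap at 6 h replicate 5. S100a8, a calcium-binding protein abundant in neutrophils, differed by 0.65 ± 0.23, while Np4, a defensin, and Lcn2, of neutrophil granules, differed by -0.56 and -0.63. The median over the 9 markers was 0.25 ± 0.23 in 6 h lungs and 0.29 ± 0.24 in sham lungs (SD, n = 5 each; exact permutation p = 0.841), while the median of the 9 differences was 0.45, of the opposite sign.

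Of 9 monocyte and macrophage markers 1 was higher and 1 lower at an unadjusted p under 0.05, against 11.2% and 11% of all features. Of the 9, 7 had a positive difference, and the median was 0.24. The lower one was Lyz2, with -0.91. The higher one, Fcgr2a, an Fc receptor for IgG, stood at -0.41, -0.15, 0.09, 0.23 and 0.20 in the 6 h lungs, against -0.84, -0.82, -0.62, -1.11 and -1.10 in the sham lungs. The groups were well apart, with a difference of 0.89 ± 0.18 (adjusted p = 0.0857), and both sequences spotted for this gene were higher, by 1.06 and 0.72. Of 18 lymphocyte markers 2 were higher and 2 lower at an unadjusted p under 0.05, against 11.2% and 11% of all features. Among the 18 markers 7 had a positive difference, and the median was -0.13. Klrd1, an inhibitory receptor of natural killer cells, stood at 0.40, 0.81, 0.43, 0.43 and 0.44 in the 6 h lungs, against -0.70, -0.43, 0.21, -0.52 and 0.03 in the sham lungs, a difference of 0.79 ± 0.20 without overlap. Cd28, a costimulatory receptor of T cells, differed by 0.71 ± 0.23. Nkg7, of cytotoxic granules, lay below sham on every array, with -0.55 ± 0.19, and Klrb1a, a receptor of natural killer cells, differed by -0.47 ± 0.21. Of the other cell lists, 2 of 12 endothelial markers were higher and 0 lower at an unadjusted p under 0.05, while 5 of the 12 had a positive difference and the median was -0.08. Likewise 1 of 14 fibroblast and smooth muscle markers was higher and 2 lower, and 1 of 8 red cell and platelet markers was higher and 1 lower. Of genes that mark other organs, 5 of 32 liver genes were higher and 2 lower, with a median of 0.24, 1 of 21 kidney, gut and muscle genes was higher and 3 lower, and 2 of 17 brain genes were higher and 2 lower.

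Mast cell and basophil markers had the smallest p among the 13 marker lists. Their median was 0.22, -0.04, -0.24, -0.36 and -0.10 in the 6 h lungs, against -1.06, -0.38, -0.43, -0.52 and -0.32 in the sham lungs (exact permutation p = 0.0159, adjusted over 13 lists 0.206). The groups overlapped, and sham replicate 1 stood lowest. Of 13 members 4 were higher and 1 lower at an unadjusted p under 0.05, where 11.2% and 11% of all features were. Hdc, the enzyme that makes histamine, stood at -0.24, -0.04, -0.24, 0.01 and -0.01 in the 6 h lungs, against -2.98, -1.42, -0.43, -0.51 and -1.02 in the sham lungs, a difference of 1.17 ± 0.41 with a spot near the lowest ratio among the sham values. Tpsab1, a tryptase, differed by 0.63 ± 0.25, Cpa3, carboxypeptidase A of mast cell granules, by 0.68 ± 0.24, and Mcpt10, a granule protease of the rat, by 0.74 ± 0.23. Cma1, a chymase, went the other way with -0.47 ± 0.18. Proteases of this family are alike in sequence and may share signal on the spots.

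Of 60 genes for cytokines, chemokines and the response to NF-kB, 9 were higher and 4 lower at an unadjusted p under 0.05. At that p 11.2% of all features were higher and 11% lower. The median difference of the 60 genes was 0.04. Il2, the T cell growth factor, stood at -1.12, -1.22, -1.13, -0.23 and -0.92 in the 6 h lungs, against -2.84, -1.75, -2.10, -1.58 and -1.66 in the sham lungs, a difference of 1.06 ± 0.28 without overlap (adjusted p = 0.0993). Ccl20, a chemokine for lymphocytes and dendritic cells, stood at -0.08, 0.13, -0.09, 0.25 and 0.21 in the 6 h lungs, against -0.68, -0.44, -0.47, -0.72 and -0.26 in the sham lungs, a difference of 0.60 ± 0.16, also without overlap. Il1b, an early inflammatory cytokine, differed by 0.59 ± 0.21 and Socs3, an inhibitor of cytokine signalling, by 0.70 ± 0.25, both with overlap. Cxcl10, an interferon-induced chemokine, stood at -0.19, -1.23, -0.92, -1.24 and -1.09 in the 6 h lungs, against -0.25, -0.56, -0.38, -0.23 and 0.38 in the sham lungs, a difference of -0.73 ± 0.24. Of the 12 endothelial markers, of which most had a negative difference, Sele (E-selectin, which slows rolling leukocytes) stood at -0.16, 0.64, 0.43, 1.12 and 0.66 in the 6 h lungs, against -0.26, -0.16, -0.96, -0.11 and -0.14 in the sham lungs, with 0.86 ± 0.25, and Mcam, an adhesion molecule of vessels, differed by 1.10 ± 0.45. For Mcam, sham replicate 1, at -2.23, stood far below the other sham values of 0.21 to 0.48.

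Of 18 interferon-stimulated genes, 7 were lower and 2 higher at an unadjusted p under 0.05, where 11% and 11.2% of all features were, and the median difference was -0.33. Tap2, of the peptide transporter for MHC class I, stood at 0.05, -0.10, -0.20, -0.65 and -0.30 in the 6 h lungs, against 0.27, 0.42, 0.28, 0.32 and 0.57 in the sham lungs, a difference of -0.61 ± 0.17 without overlap. Ifit1 and Rsad2 (viperin), antiviral proteins, differed by -0.65 ± 0.23 and -0.41 ± 0.15, also without overlap. The exceptions were Eif2ak2, the kinase PKR, with 0.84 ± 0.28, and Oas1a, an oligoadenylate synthetase, with 0.68.

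Genes of energy metabolism stood mostly lower in respiration and mixed in glycolysis. Of 42 genes of mitochondrial respiration, 9 were lower and 1 higher at an unadjusted p under 0.05, against 11% and 11.2% of all features, 32 had a negative difference, and the median was -0.28. Of the 42, 4 lay below sham on every array, where 2.95% of all features did. Ndufv2, a subunit of complex I, stood at 0.06, 0.19, -0.80, -0.90 and -0.96 in the 6 h lungs, against 0.39, 0.41, 1.08, 0.51 and 0.25 in the sham lungs, a difference of -1.01 ± 0.27. Uqcrfs1, the iron-sulfur protein of complex III, stood at -1.17, -1.21, -1.53, -1.87 and -1.20 in the 6 h lungs, against -0.51, -0.92, -0.64, -0.84 and -0.91 in the sham lungs, a difference of -0.63 ± 0.18. Slc25a4, the exchanger of ADP and ATP, and Cycs, cytochrome c, differed by -0.56 ± 0.19 and -0.42 ± 0.19. Ucp3, an uncoupling protein, was the member higher at that p, with 0.65.

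Among 47 hypoxia-responsive and glycolytic genes 9 were lower and 1 higher at an unadjusted p under 0.05, against 11% and 11.2% of all features, with a median of -0.04. The higher one was Pdk1, the kinase that closes pyruvate dehydrogenase and is a known target of hypoxia-inducible factor (HIF). Pdk1 stood at -0.42, -0.60, -0.47, 0.28 and -0.47 in the 6 h lungs, against -1.78, -1.50, -2.01, -0.98 and -1.04 in the sham lungs, a difference of 1.13 ± 0.25 (adjusted p = 0.0878), and 6 h replicate 4 lay above the other 6 h values. Aldoa, a glycolytic aldolase, stood at -0.86, -0.48, -1.83, -0.93 and -0.77 in the 6 h lungs, against -0.25, 0.14, -0.18, 0.09 and 0.09 in the sham lungs, a difference of -0.95 ± 0.24. Slc2a1, the glucose transporter GLUT1, stood at -2.17, -1.97, -1.98, -2.15 and -2.20 in the 6 h lungs, against -1.40, -1.77, -1.52, -1.67 and -1.96 in the sham lungs, a difference of -0.43 ± 0.16. These 3 genes were the members of the list without overlap between the groups, 1 of 47 above sham and 2 below. Of all features 3.08% lay above sham on every array and 2.95% below. Vegfa, the vascular growth factor, stood at 1.15, 0.84, 0.20, 0.34 and 0.19 in the 6 h lungs, against 1.54, 0.56, 1.52, 1.12 and 1.23 in the sham lungs, a difference of -0.65 ± 0.25 with overlap.

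The promoters of these 3 genes are shown because the genes are on the same list and lay on opposite sides of sham. Each line holds 300 bases around a RefSeq start in build GRCr8, 5′ to 3′ along the gene. Capitals mark ACGTG, 1 form of the core of the HIF response element, or its reverse complement CACGT. The other form, GCGTG, was not searched for and is not marked. Aldoa has 3 starts there, and the third is shown because it is the one that holds these letters. The other 2 Aldoa starts held 0 matches, and so did both starts of Vegfa. The lines are Pdk1 (chr3:77113264-77113563, forward strand), Aldoa (chr1:190836728-190837027, reverse strand) and Slc2a1 (chr5:138002272-138002571, forward strand).
Pdk1: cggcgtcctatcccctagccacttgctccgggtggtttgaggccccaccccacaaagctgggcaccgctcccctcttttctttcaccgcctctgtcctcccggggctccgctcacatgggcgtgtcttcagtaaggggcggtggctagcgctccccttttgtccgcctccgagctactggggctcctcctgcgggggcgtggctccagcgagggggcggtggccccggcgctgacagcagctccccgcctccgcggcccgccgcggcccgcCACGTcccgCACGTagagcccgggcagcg
Aldoa: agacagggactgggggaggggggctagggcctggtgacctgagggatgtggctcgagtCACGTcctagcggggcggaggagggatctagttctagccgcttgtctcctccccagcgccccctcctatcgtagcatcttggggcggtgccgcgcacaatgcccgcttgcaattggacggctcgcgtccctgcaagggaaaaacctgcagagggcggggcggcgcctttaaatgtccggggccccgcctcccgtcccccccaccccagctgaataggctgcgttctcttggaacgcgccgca
Slc2a1: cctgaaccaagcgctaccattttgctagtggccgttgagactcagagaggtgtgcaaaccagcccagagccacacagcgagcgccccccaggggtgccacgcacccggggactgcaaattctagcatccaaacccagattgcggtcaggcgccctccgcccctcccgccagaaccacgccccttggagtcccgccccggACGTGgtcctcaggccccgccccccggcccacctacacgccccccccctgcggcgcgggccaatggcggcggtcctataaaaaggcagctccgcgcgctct
The marked letters occurred 2 times for Pdk1, 1 time for Aldoa at this start and 1 time for Slc2a1. Of the 41 list members with a RefSeq promoter, 21 (51.2%) held ACGTG on either strand, and of all 27457 genes 20.9% did. The list was chosen for genes known to respond to hypoxia or to act in glycolysis. Its higher share can come from that choice and is no result about these lungs. 

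The malate-aspartate shuttle, which carries reducing equivalents between cytosol and mitochondria, had members on both sides. Mdh1, the cytosolic malate dehydrogenase, stood at 0.49, 0.83, 1.13, 0.97 and 0.76 in the 6 h lungs, against -0.14, 0.06, 0.07, 0.43 and 0.14 in the sham lungs, a difference of 0.73 ± 0.17. Got1, the cytosolic aspartate aminotransferase that works beside it, stood at -0.32, -1.15, -1.10, -0.54 and -0.65 in the 6 h lungs, against 0.23, 0.58, 0.53, 0.23 and -0.31 in the sham lungs, a difference of -1.01 ± 0.23. Both were without overlap, in opposite directions. Slc25a11, the carrier that exchanges malate for oxoglutarate, stood at -0.60, -0.56, -0.43, -0.62 and -0.59 in the 6 h lungs, against -0.17, -0.17, -0.02, -0.35 and -0.15 in the sham lungs, a difference of -0.39 ± 0.14 without overlap. Of 17 genes of this list and the citrate cycle 2 were higher and 3 lower at an unadjusted p under 0.05. At that p 11.2% of all features were higher and 11% lower. Sdhb, a subunit of succinate dehydrogenase, was among the lower genes with -0.72 ± 0.23.

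**Figure D4:**
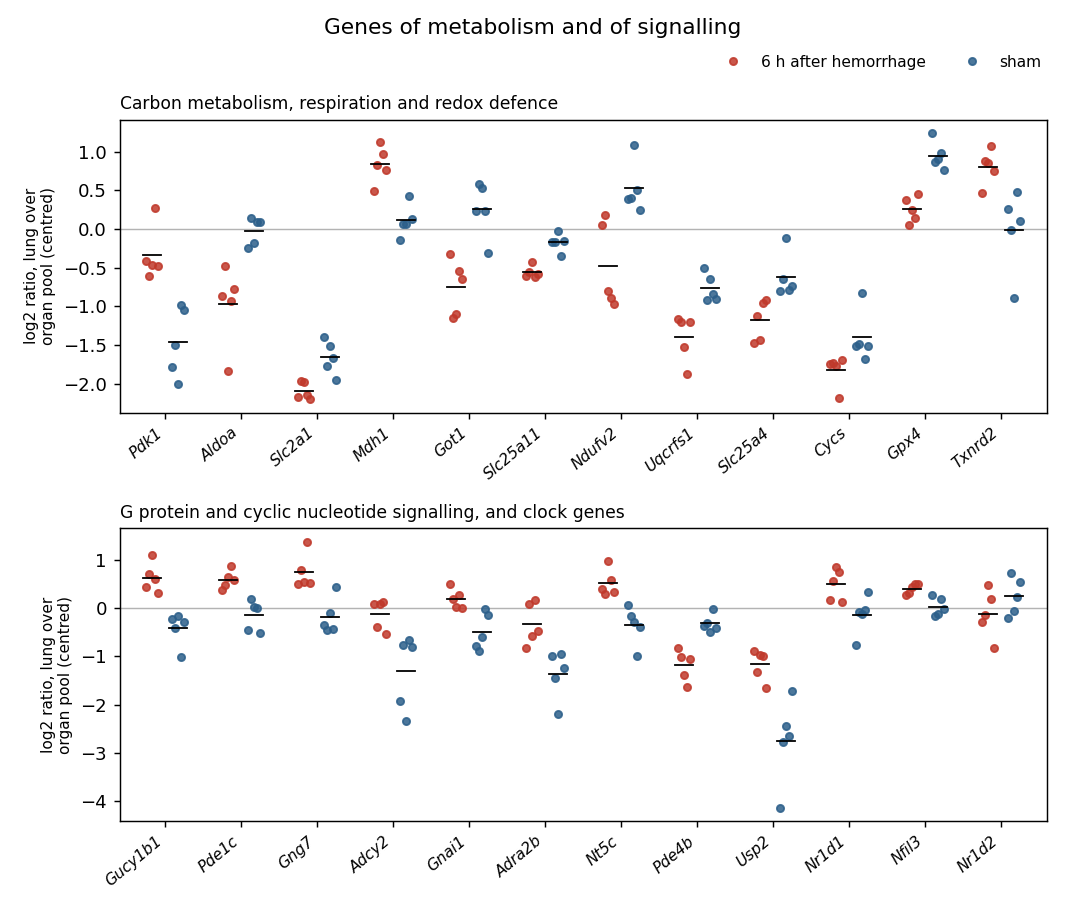
Centred log2 ratio on each array for genes of carbon metabolism, respiration and redox defence (upper panel) and of signalling and the clock (lower panel), 6 h lungs (red) left of sham lungs (blue), bars at group means. Pdk1 and Mdh1 lie above sham, while Aldoa, Got1, Ndufv2 and Gpx4 lie below it, without overlap.

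Oxidative stress defence had 6 higher and 9 lower of 42 genes at an unadjusted p under 0.05 and a median of -0.01. At that p 11.2% of all features were higher and 11% lower. Gpx4, which reduces lipid peroxides, stood at 0.38, 0.05, 0.25, 0.14 and 0.45 in the 6 h lungs, against 1.24, 0.87, 0.90, 0.98 and 0.76 in the sham lungs, a difference of -0.70 ± 0.16 without overlap. Gclm, of glutathione synthesis, and Cat (catalase) differed by -0.52 ± 0.17 and -0.47 ± 0.20. The thioredoxin reductases went the other way. Txnrd1, the cytosolic enzyme, differed by 0.50 ± 0.16 without overlap and Txnrd2, the mitochondrial one, by 0.82 ± 0.25. Cat stood at 2.42 on sham replicate 2. Of 38 heat shock and chaperone genes 3 were higher and 6 lower. Hspa1a, the inducible HSP70, differed by -0.73 ± 0.20 and Dnajb9, a chaperone of the endoplasmic reticulum, by 0.83 ± 0.26, each without overlap and in opposite directions.

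Of 59 genes of G proteins and cyclic nucleotides, 5 lay above sham on every array and 1 below, where 3.08% and 2.95% of all features did. Gucy1b1, the beta subunit of the nitric oxide receptor guanylyl cyclase that relaxes vessels through cGMP, stood at 0.43, 0.70, 1.10, 0.59 and 0.30 in the 6 h lungs, against -0.22, -0.42, -0.16, -1.02 and -0.28 in the sham lungs. The difference was 1.04 ± 0.22 (adjusted p = 0.0857), and its 6 h values were all above 0 and its sham values all below. Gng7, a G protein gamma subunit, stood at 0.49, 0.78, 0.53, 1.37 and 0.53 in the 6 h lungs, against -0.35, -0.46, -0.10, -0.44 and 0.42 in the sham lungs, a difference of 0.92 ± 0.23. Gnai1, which inhibits adenylyl cyclase, Adcy2, an adenylyl cyclase, and Pde1c, a calcium-dependent phosphodiesterase, differed by 0.68 ± 0.21, 1.17 ± 0.34 and 0.74 ± 0.18. Pde4b, a cAMP phosphodiesterase active in inflammatory cells, was the member that lay below. It stood at -0.82, -1.02, -1.39, -1.64 and -1.06 in the 6 h lungs, against -0.37, -0.31, -0.51, -0.01 and -0.41 in the sham lungs, a difference of -0.87 ± 0.19 (adjusted p = 0.0878). At an unadjusted p under 0.05 the list held 7 higher and 9 lower genes, against 11.2% and 11% of all features.

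Genes of the response to glucocorticoid and catecholamines were mixed, with 4 higher and 7 lower of 32 at an unadjusted p under 0.05. At that p 11.2% of all features were higher and 11% lower. Adra2b, an alpha-2 adrenergic receptor, stood at -0.83, 0.08, -0.57, 0.17 and -0.47 in the 6 h lungs, against -0.99, -1.45, -2.19, -0.94 and -1.25 in the sham lungs, a difference of 1.04 ± 0.28 without overlap. Glul, a glutamine synthetase induced by glucocorticoid, and Hsd11b2, which inactivates glucocorticoid, differed by -0.88 ± 0.27 and -0.51 ± 0.16, both below sham on every array. Of 54 genes of vasoactive mediators 6 were higher and 4 lower, with a median of 0.02. Gucy1b1, described above, is also on this list and was higher with 1.04. Among the lower members, Agt, the precursor of angiotensin, differed by -0.63 ± 0.21. Avp (vasopressin) differed by -0.47 ± 0.17 and Alox5ap, needed for leukotriene synthesis, by -0.83 ± 0.27. Nt5c, a cytosolic nucleotidase and 1 of 5 higher among 31 purine and adenosine genes, stood at 0.40, 0.28, 0.97, 0.58 and 0.33 in the 6 h lungs, against 0.07, -0.16, -0.30, -1.0 and -0.40 in the sham lungs, a difference of 0.87 ± 0.22 without overlap.

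Of 17 circadian clock genes 3 were higher and 0 lower at an unadjusted p under 0.05, against 11.2% and 11% of all features, while 8 had a positive difference and the median was -0.08. Usp2, a deubiquitinase with a strong daily rhythm, stood at -0.89, -1.33, -0.97, -0.99 and -1.65 in the 6 h lungs, against -4.13, -2.78, -2.44, -2.64 and -1.73 in the sham lungs. Its difference of 1.58 ± 0.37 was without overlap, and a spot on 1 sham array was near the lowest ratio. Nr1d1 (REV-ERB alpha), a repressor of the clock, stood at 0.15, 0.56, 0.85, 0.74 and 0.12 in the 6 h lungs, against -0.77, -0.08, -0.13, -0.04 and 0.32 in the sham lungs, a difference of 0.62 ± 0.23, and Nfil3, a repressor of output genes, differed by 0.37 ± 0.15. Nr1d2, the close relative of Nr1d1, differed by -0.37 with an interval of -0.96 to 0.22. As the sham time is not clear, time of day cannot be told apart from hemorrhage for these genes.

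In coagulation, 3 of 26 genes lay above sham on every array and 1 below, where 3.08% and 2.95% of all features did. Beside F2 they were Itgb3, the beta-3 integrin of platelets and vessels, with 0.54 ± 0.16, and Plaur, the urokinase receptor, with 0.48 ± 0.17. The spotted sequences of Plaur disagreed, at -0.21 and 1.18. Fga, the fibrinogen alpha chain, stood at -0.61, -0.76, -1.48, -1.02 and -0.97 in the 6 h lungs, against -0.31, -0.12, 0.31, -0.16 and -0.44 in the sham lungs, a difference of -0.82 ± 0.21, and 0.81 lower without 6 h replicate 4. Of 38 apoptosis and p53 target genes 6 were higher and 7 lower at an unadjusted p under 0.05, where 11.2% and 11% of all features were. Bcl2l2, which protects against cell death, and Pawr, which favours it, had differences of 0.75 ± 0.21 and 0.83 ± 0.24. Of 35 genes of the cell cycle, Rb1, the retinoblastoma protein, lay below sham with -0.83 ± 0.20 and Hmmr, a mitotic spindle protein, above it with 0.99 ± 0.25.

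Protein synthesis and turnover had members on both sides. Of 50 ribosomal protein genes 1 was higher and 7 lower at an unadjusted p under 0.05, with a median of -0.03, and Rpl36 stood at 0.21, -0.26, 0.26, 0.43 and 0.20 in the 6 h lungs, against 1.56, 1.14, 0.96, 0.83 and 1.02 in the sham lungs. Of 47 proteasome and ubiquitin genes 10 were higher and 6 lower, where 11.2% and 11% of all features were. Psmd13, a lid subunit of the proteasome, differed by 0.54 ± 0.18 without overlap. Of 27 genes chosen by translation factor symbols, which also include the kinases Eif2ak2 and Eif2ak3, Eef1d, an elongation factor subunit, lay below sham with -0.69 ± 0.17. Of 48 genes of the extracellular matrix 5 were higher and 6 lower, with a median of 0.09. Mmp8, described above, was higher with 1.29, while Itga7, a laminin receptor, and Lamc1, a laminin chain, lay below sham with -0.65 ± 0.18 and -0.54 ± 0.21. Among 32 immediate early genes 1 was higher and 3 lower, Fosl1, a subunit of AP-1, having -0.66 ± 0.20. Of 21 complement and acute phase genes 4 were higher and 3 lower, 13 had a positive difference, and the median was 0.18. C3ar1, the receptor of C3a, went the other way with -0.76 ± 0.28. Its sham replicate 5, at 0.83, stood above the other sham values of -0.40 to -0.18.

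The control lungs gave a second baseline from rats without instruments. In 1 fit over 30 arrays and 9 groups, limma called 226 of 5988 features (3.77%) between 6 h and control lungs, 149 higher and 77 lower. Leaving out any 1 of the 8 arrays moved at least 1 of these counts by over 1.5 times, from 3 higher and 3 lower without control replicate 1 to 347 and 146 without control replicate 3 and 273 and 165 without 6 h replicate 1. The counts were 0 when only the 5 and 3 arrays were fitted. In the 30-array fit Pde4b fell by 1.44 ± 0.25 relative to control (adjusted p = 0.00605), and Nedd4 fell by 1.59 ± 0.29 (adjusted p = 0.00982). Pacsin1, an endocytosis adaptor best known from neurons, rose by 1.41 ± 0.21 (adjusted p = 0.00385), against 0.80 ± 0.21 relative to sham. Slc34a2 fell by 1.98 ± 0.45, Mdh1 rose by 0.89 ± 0.20, Pdk1 by 1.44 ± 0.34 and Gper1 by 1.12 ± 0.28 (adjusted p = 0.0244, 0.0217, 0.0244 and 0.0359). Of 23 genes named by rule and called, 0 kept the call in all 12 alternatives. Pacsin1 lost it in 1, Nedd4 and Pde4b in 2 each, Mdh1 in 3, Slc34a2 and Pdk1 in 4 each and Gper1 in 8. Scgb1a1 differed from control by -0.56 ± 0.54 and Sftpb by -0.15 ± 0.32, so that the control means lay between the 6 h and the sham means. Both comparisons share the 6 h arrays.

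The other bled rats, 17 lungs taken at 1, 3, 16, 24, 48 or 72 h after the same blood withdrawal, were in the same fit, without 16 h replicate 3 for its liver signal. Set against the mean of these 6 times, 0 of 5988 features were called at 6 h (0%), while 841 had an unadjusted p under 0.05 in limma. The smallest p in limma were those of Smtnl1, a regulator of smooth muscle contraction, with -0.95 ± 0.19 (adjusted p 0.204), and Zfp422, a zinc finger protein, with -0.87 ± 0.19. Pde8a followed with -0.96 ± 0.21. Its group means at 1, 3, 6, 16, 24, 48 and 72 h were 0.18, 0.75, -0.76, -0.16, 0.13, 0.04 and 0.27, against 0.42 in sham and -0.10 in control lungs. The 6 h mean was the lowest of the series, but the gene was named for its low 6 h values. Rps6kb1, the S6 kinase of the mTOR pathway, differed by -0.79 ± 0.18, and Tfdp1, the partner of E2F factors, by -1.01 ± 0.23. Above the other times stood Mpp2, a membrane scaffold, with 0.65 ± 0.16, Kcnk15, a potassium channel, with 0.74 ± 0.18, Myl11, a myosin light chain of fast muscle, with 0.86 ± 0.21, Jun, a subunit of AP-1, with 0.67 ± 0.17, and Ptgs2 (cyclooxygenase-2) with 0.81 ± 0.21. These 5 stood near sham at 6 h, with differences of 0.29, -0.27, 0.33, 0.12 and -0.01, each with an unadjusted limma p above 0.05.

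Group means over time placed the 6 h values in their course. The genes shown were named by their 6 h difference from sham, and the same 6 h arrays enter these means and contrasts. An extreme 6 h mean therefore follows in part from that choice. Slc34a2 had means of 0.95, 0.98, -0.51, 0.11, 0.71, 0.75 and 0.66 at 1, 3, 6, 16, 24, 48 and 72 h, against 1.08 in sham and 1.48 in control lungs. Its mean was lowest at 6 h, -1.20 ± 0.32 from the mean of the other times (unadjusted p = 0.000783). Gper1 had means of 0.49, 0.44, 1.31, 1.13, 1.01, 0.39 and 0.56 at the same times, against 0.37 in sham and 0.19 in control lungs, with its highest mean at 6 h, 0.64 ± 0.20 from the other times. Pdk1 had means of -0.87, -0.70, -0.34, -0.49, -0.58, -0.24 and -0.15, against -1.46 in sham and -1.78 in control lungs, and the 6 h value differed from the other times by 0.17 ± 0.23. Rbbp9 had means of -1.78, -1.44, -0.73, 0.04, -0.88, -0.36 and -0.24, against -2.38 in sham and -1.99 in control lungs. Only 2 control lungs had a value, replicate 2 at -3.06 and replicate 3 at -0.92, the latter within the range of the 6 h lungs. Scgb1a1 had means of 3.18, 3.60, 2.21, 1.97, 1.66, 1.99 and 1.22, against 3.38 in sham and 2.77 in control lungs. From the mean of the other times the 6 h mean differed by 0.04 ± 0.31 for Rbbp9 and -0.06 ± 0.38 for Scgb1a1. By group mean, Rbbp9 stood above sham and Scgb1a1 below it from 16 to 72 h as well. For Scgb1a1, 48 h replicate 2, at 3.54, lay within the sham range, and control replicate 3, at 1.58, lay below every 6 h value.

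**Figure D5:**
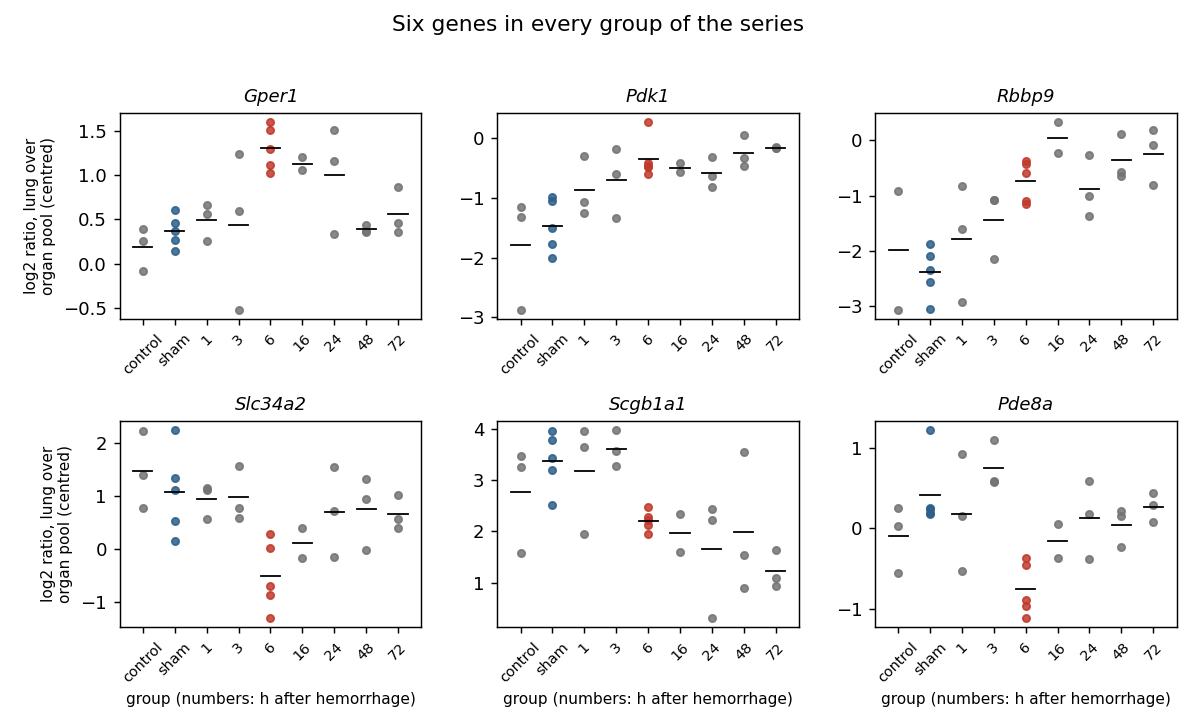
Centred log2 ratio on each array for 6 genes in control, sham and bled lungs, the bled lungs ordered by hours after hemorrhage, with bars at group means (6 h red, sham blue, other groups grey, with sham replicate 2 and 16 h replicate 3 left out). Gper1 peaks and Slc34a2 and Pde8a are lowest at 6 h by group mean, while Pdk1 and Rbbp9 stay above sham at the later times. All 6 genes were named by their 6 h values against sham.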

How the data were processed

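The deposited values are log2 ratios of lung RNA over a common pool of rat organ RNA, per the labels' protocols, 1 array per sample. What the authors did before deposit (dyes, scanning, normalization) is not given in the sources used here. Direction was read from lung genes, which exceeded other-organ genes on 31 of 32 arrays, the 10 compared included. Each array was centred on its median, and spots of 1 gene symbol (otherwise 1 accession, otherwise a neighbouring pair) were averaged, giving 5022 named genes among 6223 features. Features with values on at least 3 arrays of both groups entered limma 3.58.1 (R 4.3.3; lmFit and eBayes, two-sided), with Benjamini-Hochberg adjustment over all 6199. Order without overlap needed 4 arrays of each group. Errors after ± are SEs unless stated. Marker lists were tested by two-sided exact permutation of 252 assignments.

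Genes were named by rule: per direction the 12 with the smallest p and the 4 largest without overlap, and 2 members of each list by p; further list members and the surfactant, time and liver genes beyond these were added after their values were seen. Members and lists were chosen with earlier results of these data known. The fit was tested on simulated data. Alternatives covered centring, quantile normalization, missing values, low spots, averaging, array weights, robust spread, the 30-array fit and each array left out. Probe names came from the platform annotation, and 5006 of 5022 Entrez identifiers were found in a current table.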

Additional observations from a re-analysis of the deposited data

Results flagged for a closer look

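Among 198 groups of 5 values examined, 14 (7.07%) held a value set apart from the other 4 by a Dixon test, where chance alone marks about 1 in 20. In the 6 h lungs these were Ccni at 0.16 on replicate 1, Klrd1 at 0.81 on replicate 2, Pdk1 at 0.28 and Itga7 at -1.20 on replicate 4, and Mcpt10 at -0.16 on replicate 5. In the sham lungs they were Il24 at -3.38 and Mcam at -2.23 on replicate 1, Pde8a at 1.22, Sele at -0.96 and Fosl1 at -0.41 on replicate 4, and Lgr4 at 0.70 and C3ar1 at 0.83 on replicate 5. Il24, a cytokine of the IL-10 family, differed by 1.31 ± 0.52 and lay above sham on every array, but the value of sham replicate 1 came from a spot near the lowest ratio. Of the marker lists, the type II pneumocyte median on 6 h replicate 5 was 1.94 and the mast cell and basophil median on sham replicate 1 was -1.06. The remaining result lies outside the comparison. Liver genes on sham replicate 2 had a median of 2.61, against -0.69 to -0.45 in the control lungs.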

How the results depend on the processing

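In limma, 0 features were called against sham under every alternative run and without any 1 array, and the lowest adjusted p of a named gene was 0.0547. The count at an unadjusted p under 0.05 was 950 to 1563 without 1 array (lowest without 6 h replicate 4), 1116 in the 30-array fit and 1132 with sham replicate 2. The count at an adjusted p under 0.10, 163 on the arrays as compared, was 0 to 418 without 1 array. With the replicate number as a block, the sham comparison, the only one fitted so, had 0 calls, 986 features at an unadjusted p under 0.05 and 0 at an adjusted p under 0.10. For samples numbered 1, 3, 4 and 5 in both groups, deviations from the group means correlated at 0.022, 0.021, -0.156 and -0.099. No positive correlation by number stood out, but this cannot tell whether lungs of the same number were handled together. Features without overlap numbered 200 to 376 above and 198 to 332 below without 1 array, and 125 and 105 with sham replicate 2. Against the other times, calls were 0 higher and 0 to 2 lower without 1 6 h array. Against control, calls were 3 to 347 higher and 3 to 165 lower without 1 array. They were 82 higher with no centring, 31 and 19 with both liver-rich arrays added, and 0 and 0 with only the 5 and 3 arrays compared, the last and the omission of control arrays being chosen after the data were seen.

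Many genes were named because their groups did not overlap or their p was small. Without overlap, leaving out 1 array cannot turn the sign of a difference. Of 1892 repeats for 86 genes named against sham, 1889 kept sign. Those that turned did so with sham replicate 2 added: Sftpb at 0.047, Akap5 at 0.13 and Lyz2 at 0.21. With that array the list differences turned to 0.056 for type II and 0.17 for type I pneumocytes, 0.035 for fibroblast and smooth muscle, 0.081 for neutrophil and -0.31 for liver genes. With 1 array left out they ran over both signs for club cell genes (-0.065 to 0.123), fibroblast genes (-0.156 to 0.014), neutrophil genes (-0.133 to 0.052) and brain genes (-0.014 to 0.201). The cause was not tested.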
